A study of Mus musculus with 7 samples.

Results

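The voltage-gated calcium channel genes described here are 8 genes for pore-forming alpha1 subunits, Cacna1a, Cacna1b, Cacna1c, Cacna1d, Cacna1e, Cacna1g, Cacna1h and Cacna1i, and 2 for alpha2delta subunits, Cacna2d1 and Cacna2d2. They were found in the deposited expression table by gene symbol, and all 10 matched 1 row each of 54309 genes. Transcripts were measured by RNA sequencing in lumbar (L4-6) dorsal root ganglia, which hold the cell bodies of sensory neurons, from male C57bl/6 mice of 6 to 8 weeks. Injury to the sciatic nerve took place at hour 20 of Zeitgeber time (ZT, counted from lights on) in 1 group (4 samples) and at hour 8 in the other (3 samples), and the ganglia were collected 72 h later. All samples therefore came from injured mice with no named allele or drug, the hour of injury and the hour of dissection move together, and uninjured ganglia were not analysed here. The ganglia were digested with dispase, collagenase and papain and the cells spun through an albumin gradient, so each sample is an enriched neuronal preparation and not intact tissue. The table gives no read counts, so the depth is unknown. The labels do not say how many mice went into a sample, so p-values measure the spread between these samples only.

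A voltage-gated calcium channel opens when the membrane depolarizes and lets calcium into the cell. Its alpha1 subunit forms the pore and sets the channel type, while beta subunits on the inner side and alpha2delta subunits on the outer side carry it to the membrane and tune its current. In sensory neurons, N-type and P/Q-type channels trigger transmitter release at the central terminals, L-type channels couple activity to gene expression, and T-type channels open near rest and shape firing. Alpha2delta proteins are the targets of gabapentin and pregabalin, and Cacna2d1 is known for its rise in sensory ganglia after nerve injury.

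The samples differed in ways that bear on every comparison. The number of genes above 0 TPM (transcripts per a fixed total of the sample, a level corrected for transcript length) was 24192 to 25238 at ZT20 and 18297 to 22973 at ZT8, and ZT8 replicate 2 had the fewest. Y-linked Ddx3y, Eif2s3y and Uty were listed at 0 in ZT20 replicates 3 and 4, against the male label, while ZT20 replicate 2 held both Y-linked transcripts and Xist. The 12 neuronal markers were all above 0 in each sample. Their summed TPM was 16732 to 21431 at ZT20 and 12664 to 19124 at ZT8, lowest in ZT8 replicate 2. Of these 12 genes 4 rose at ZT20 without overlap, Nefh, Pou4f1, Elavl4 and Map2, with log2 differences of 1.36, 1.32, 1.08 and 1.06 (limma adjusted p = 0.00569, 0.0146, 0.00735 and 0.0226), and 0 fell. Over all tested genes 12.8% rose, 3.61% fell, and 24.5% had ranges that did not overlap with ZT20 above. The other 8 did not pass, among them Uchl1, Isl1 and Prph at −0.096, −0.041 and 0.027. The summed TPM of 6 satellite glia markers was 7483 to 9148 at ZT20 and 12760 to 15466 at ZT8, and that of 6 macrophage markers was 97.2 to 142 and 153 to 349, without overlap in either list. Apoe alone gave 6261 to 7615 TPM of the satellite glia sum at ZT20 and 10623 to 13557 at ZT8. Of those 6 genes 3 fell at ZT20, Apoe and Fabp7 among them, while Cdh19 and Kcnj10 had log2 differences of 0.38 and 0.21 that did not pass. Of the 6 macrophage markers C1qa was the 1 that fell past the threshold, at −1.17 (limma adjusted p = 0.0253). C1qb and Aif1 were at −0.84 and −0.95, C1qb without overlap, and did not pass (limma adjusted p = 0.0887 and 0.127). Cd68, Csf1r and Adgre1 had log2 differences of −0.12, −0.16 and 0.19 and overlapping ranges. The summed TPM of 5 markers of nonpeptidergic nociceptors was 418 to 547 at ZT20 and 298 to 349 at ZT8. The sums of the other neuron subtype lists, A-type low-threshold mechanoreceptors and proprioceptors included, overlapped. For peptidergic nociceptors they were 4410 to 6468 at ZT20 and 4507 to 5468 at ZT8. For C-type low-threshold mechanoreceptors they were 107 to 155 and 147 to 202. The summed TPM of 5 plasma cell markers was 8.41 to 425 at ZT20 and 503 to 885 at ZT8. Of these, 1 fell, Mzb1 (log2 difference −2.88, limma adjusted p = 0.0432). The summed TPM of 5 erythroid markers was 2369 to 6679 at ZT20 and 951 to 9534 at ZT8, highest in ZT8 replicate 2. The part of these cell types and of library quality in the differences was not tested. Library identifiers are numbers at ZT20 and letters at ZT8, so a batch marked by them and the time of injury cannot be told apart.

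Among the members, transcript levels spanned a wide range. Over all samples Cacna2d1 was highest, Cacna1b next, then Cacna1a, Cacna1h, Cacna1c, Cacna2d2, Cacna1d, Cacna1e, Cacna1i and Cacna1g. Cacna2d1 lay above Cacna1b, and Cacna1b above Cacna1a, with no overlap of their TPM ranges over the 7 samples. Every later pair of neighbours overlapped in range, although Cacna2d2 was above Cacna1d in 7 of 7 samples and Cacna1a above Cacna1h in 6 of 7. Cacna1c and Cacna2d2 could not be ordered, since Cacna1c was the higher of the pair in 3 of 7 samples. Nor could Cacna1e and Cacna1i, where Cacna1e was higher in 3 of 7 samples and lower by median (0.194 against 0.210 TPM). The order was the same when any sample was left out except ZT8 replicate 2, whose removal kept 8 of the 10 ranks, with Cacna1c and Cacna2d2 changing places.

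**Figure D1:**
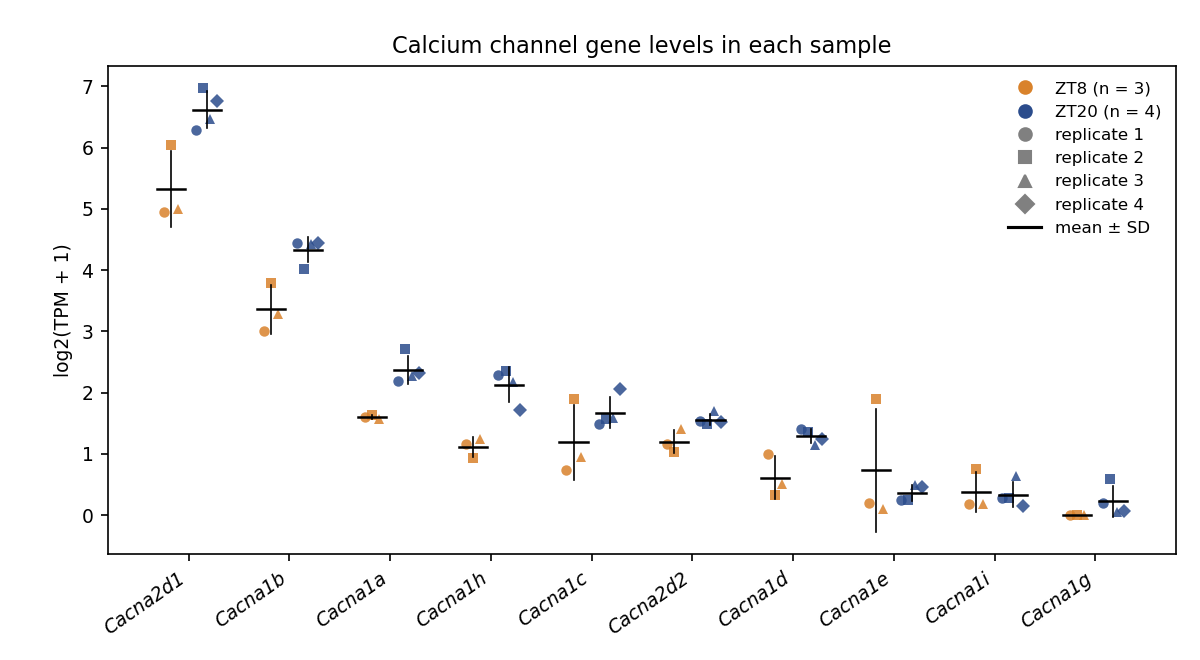
Level of each calcium channel gene as log2(TPM + 1), in order of its mean TPM over all samples, with orange points for the 3 ZT8 samples, blue points for the 4 ZT20 samples, a marker shape for each replicate number, and black lines for the group mean ± SD. Every ZT20 point lies above every ZT8 point for Cacna2d1, Cacna1b, Cacna1a, Cacna1h, Cacna2d2, Cacna1d and, close to the floor, Cacna1g. The same held for 24.5% of all tested genes. ZT8 replicate 2 (orange square) sits among or above the ZT20 points for Cacna1c, Cacna1e and Cacna1i.

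Transcripts of 4 members were higher at ZT20 than at ZT8: the alpha2delta gene Cacna2d1, the N-type gene Cacna1b, the T-type gene Cacna1h and the P/Q-type gene Cacna1a. Their mean TPM at ZT20 was 2.03 to 2.94 times that at ZT8. The comparison asks which transcripts of the injured ganglion differ with the clock time of the injury. Of the 10 members, 7 had a mean of at least 1 TPM and were tested, and 4 of those 7 passed an adjusted p-value of 0.05, all higher at ZT20 (limma on log2(TPM + 1), Benjamini-Hochberg adjustment over 14800 genes). Over all 14800 genes 16.4% passed, 12.8% higher at ZT20 and 3.61% lower. The median log2 difference was 0.77 over the 7 tested members and 0.23 over all tested genes. None of the 4 calls held by limma after removal of a trend with transcript length or under median-ratio scaling, both described with their values further on. Leaving out ZT20 replicate 3, ZT8 replicate 1 or ZT8 replicate 3 left 0 members past the threshold by limma, with 4 or 5 at an unadjusted p-value under 0.05. Leaving out ZT20 replicate 1, 2 or 4 left 1 member, Cacna2d1, Cacna1b or Cacna1h in that order, and leaving out ZT8 replicate 2 gave 5. Over all genes the count of 2433 became 624 without ZT20 replicate 3, 819 without ZT20 replicate 4 and 1125 without ZT20 replicate 1. In ganglion preparations of this kind, a change in the number of neurons of a type and a change in transcript per neuron cannot be told apart.

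Cacna2d1 (ENSMUSG00000040118) encodes the alpha2delta subunit that binds gabapentin. It was at 76.98, 124, 87.3 and 107 TPM across ZT20 replicates 1 to 4, and at 29.7, 64.9 and 30.9 TPM in ZT8 replicates 1 to 3. The groups did not overlap, and ZT8 replicate 2 lay well above the other ZT8 samples, nearest to ZT20 replicate 1. The 4 ZT20 samples averaged 98.9 ± 21.0 TPM and the 3 ZT8 samples 41.8 ± 19.97 TPM (± SD), the log2 difference being 1.29 ± 0.29 (SE; limma adjusted p = 0.0210). With any 1 sample left out the log2 difference was 1.10 to 1.65 and the limma adjusted p-value 0.00399 to 0.0689.

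Cacna1b (ENSMUSG00000004113) encodes the pore of the N-type channel, the target of ziconotide and a main source of calcium for transmitter release from nociceptors. It was at 20.7, 15.3, 20.4 and 20.8 TPM across ZT20 replicates 1 to 4, and at 7.03, 12.8 and 8.72 TPM in ZT8 replicates 1 to 3. ZT20 replicate 2 was low for its group and ZT8 replicate 2 high for its group, and the groups did not overlap. The 4 ZT20 samples averaged 19.3 ± 2.66 TPM and the 3 ZT8 samples 9.52 ± 2.97 TPM (± SD), the log2 difference being 0.97 ± 0.22 (SE; limma adjusted p = 0.0234). With any 1 sample left out the difference was 0.80 to 1.19 and the limma adjusted p-value 0.00693 to 0.0814.

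The promoters of Cacna1b and Cacna2d1 are shown because these were the most abundant members, and both were among those that passed. Each is the 250 bases before the annotated start, read 5′ to 3′ on the gene's strand from the RefSeq annotation of build GRCm38.p6, at chr2:24763153-24763402 (minus strand) and chr5:15934441-15934690 (plus strand). Capitals mark the GC box, GGGCGG, on either strand, which occurred at 3 positions for Cacna1b and at 6 for Cacna2d1, the last of them overlapping.
Cacna1b: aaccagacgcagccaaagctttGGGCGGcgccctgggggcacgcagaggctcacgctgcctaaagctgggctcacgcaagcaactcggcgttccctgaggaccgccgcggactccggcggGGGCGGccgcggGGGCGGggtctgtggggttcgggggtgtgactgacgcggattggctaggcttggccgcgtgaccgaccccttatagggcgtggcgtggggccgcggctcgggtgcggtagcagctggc
Cacna2d1: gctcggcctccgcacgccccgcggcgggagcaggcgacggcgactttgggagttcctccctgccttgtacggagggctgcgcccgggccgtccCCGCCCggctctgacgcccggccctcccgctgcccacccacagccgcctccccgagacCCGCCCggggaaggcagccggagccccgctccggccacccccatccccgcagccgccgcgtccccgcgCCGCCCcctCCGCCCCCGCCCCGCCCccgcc

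Promoter windows were listed for 7 of the members, with 10 windows in all, multiple ones for Cacna1c and Cacna1d. Cacna1a and Cacna1h, which passed, and Cacna1g had no window and were not searched. The E-box of the clock factors, CACGTG, was in 0 of these 10 windows and in 6.02% of the 32851 windows of the same length in the table. A GC box was in 5 of the 10 windows and in 32.7% of all. GC content was 72.0% in the Cacna1b window and 82.4% in the Cacna2d1 window. These counts describe letters within 250 bases and say nothing of binding.

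Cacna1h (ENSMUSG00000024112) encodes a T-type channel known for its role in low-threshold mechanoreceptors and in the excitability of nociceptors. It was at 3.87, 4.12, 3.53 and 2.27 TPM across ZT20 replicates 1 to 4, and at 1.24, 0.909 and 1.37 TPM in ZT8 replicates 1 to 3. All ZT20 samples were above all ZT8 samples, with ZT20 replicate 4 nearest to them. The 4 ZT20 samples averaged 3.45 ± 0.819 TPM and the 3 ZT8 samples 1.17 ± 0.238 TPM (± SD), the log2 difference being 1.02 ± 0.25 (SE; limma adjusted p = 0.0303). With any 1 sample left out the difference was 0.93 to 1.16 and the limma adjusted p-value 0.0335 to 0.0936.

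Cacna1a (ENSMUSG00000034656) encodes the P/Q-type pore, which drives fast release at many synapses. It was at 3.58, 5.53, 3.82 and 4.003 TPM across ZT20 replicates 1 to 4, and at 2.04, 2.10 and 1.99 TPM in ZT8 replicates 1 to 3. The ZT8 samples were nearly level with each other, and the ZT20 samples were all higher. The 4 ZT20 samples averaged 4.23 ± 0.879 TPM and the 3 ZT8 samples 2.04 ± 0.0545 TPM (± SD). The log2 difference of 0.77 ± 0.22 (SE) passed narrowly (limma adjusted p = 0.0482). With any 1 sample left out it was 0.66 to 0.83, and the limma adjusted p-value was 0.0378 to 0.118.

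The L-type genes did not pass. Cacna1d (ENSMUSG00000015968), whose channel opens at more negative potentials than its relative, was at 1.66, 1.57, 1.22 and 1.37 TPM across ZT20 replicates 1 to 4, and at 1.00, 0.263 and 0.420 TPM in ZT8 replicates 1 to 3. The groups did not overlap, and the log2 difference was 0.68 with a 95% interval of 0.06 to 1.30 (limma adjusted p = 0.116). With a mean just above 1 TPM over all samples, Cacna1d entered the test through its ZT20 values. Cacna1c (ENSMUSG00000051331), the L-type channel of heart and smooth muscle that also signals to the nucleus in neurons, was at 1.82, 1.96, 2.004 and 3.15 TPM at ZT20 and at 0.673, 2.71 and 0.926 TPM at ZT8. ZT8 replicate 2 alone made the groups overlap, and the log2 difference was 0.48 with a 95% interval of −0.28 to 1.24 (limma adjusted p = 0.333). Without ZT8 replicate 2 it was 0.83 and passed (limma adjusted p = 0.0460). Among 6 markers of smooth muscle and pericytes, Tagln and Kcnj8 were below 1 TPM in every sample, and the sum of the list was nearly all Rgs5, at 74.2 to 104 TPM at ZT20 and 42.6 to 81.0 TPM at ZT8. Acta2, the contractile actin of smooth muscle, was at 0.832 to 5.51 TPM at ZT20 and 1.44 to 4.09 TPM at ZT8. The part of such cells in the Cacna1c values was not tested.

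Cacna2d2 (ENSMUSG00000010066), the second gabapentin-binding alpha2delta subunit, was at 1.90, 1.80, 2.24 and 1.88 TPM across ZT20 replicates 1 to 4, and at 1.23, 1.05 and 1.65 TPM in ZT8 replicates 1 to 3. The ZT20 values were all higher, by a small margin over ZT8 replicate 3. The log2 difference was 0.36 with a 95% interval of −0.17 to 0.89 (limma adjusted p = 0.301). The ranges of 6 of the 7 tested members did not overlap, with ZT20 above, a count that includes Cacna1d, which was tested only through its ZT20 values. The same held for 24.5% of all tested genes.

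The R-type gene Cacna1e and the T-type genes Cacna1i and Cacna1g stayed below the mean of 1 TPM and were not tested. Cacna1e (ENSMUSG00000004110) was at 2.72 TPM in ZT8 replicate 2, while the other 6 samples ranged from 0.0776 to 0.404 TPM. Cacna1i (ENSMUSG00000022416) was at 0.111 to 0.561 TPM at ZT20 and at 0.140, 0.682 and 0.135 TPM in ZT8 replicates 1 to 3. Cacna1g (ENSMUSG00000020866) was at 0.149, 0.509, 0.0339 and 0.0502 TPM across ZT20 replicates 1 to 4, and listed at 0 in all 3 ZT8 samples. ZT8 replicate 2 was thus the highest sample for Cacna1e and Cacna1i. Fitted without the filter, Cacna1e, Cacna1i and Cacna1g had log2 differences of −0.37, −0.035 and 0.23. Their limma adjusted p-values were 0.637, 0.920 and 0.387.

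**Figure D2:**
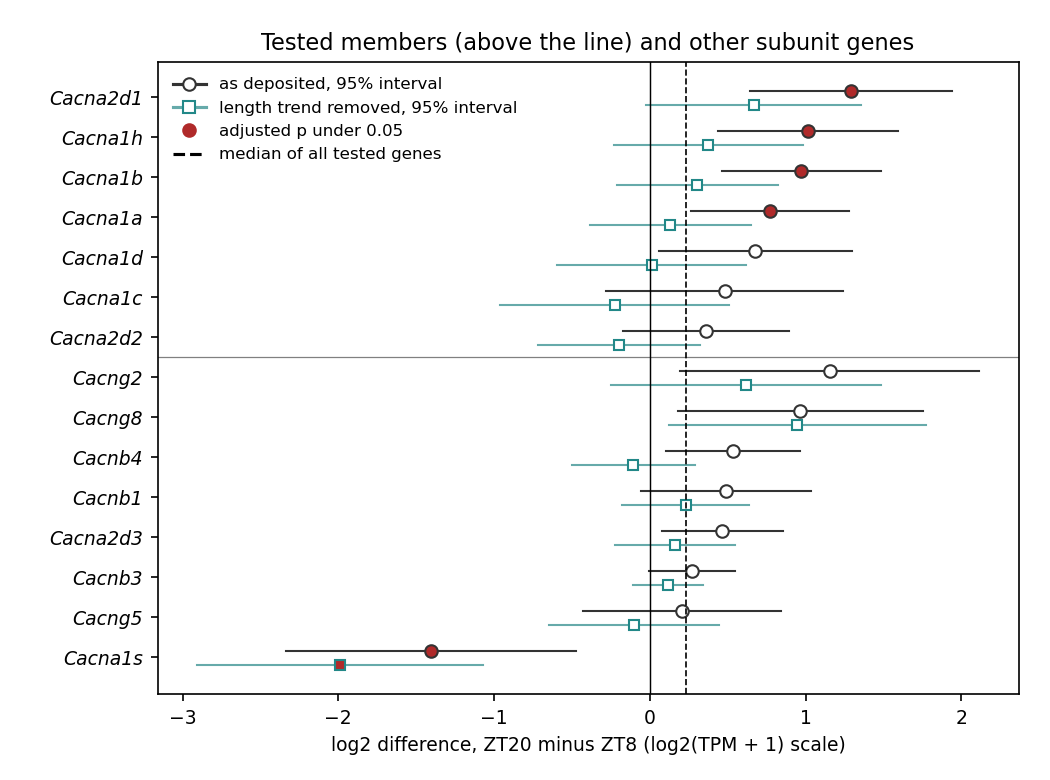
Log2 difference between ZT20 and ZT8 on the log2(TPM + 1) scale for the 7 tested members (above the grey line) and 8 other tested subunit genes, with 95% intervals. Circles are the values as deposited, squares those after each sample's trend with transcript length was removed, filled red where the limma adjusted p-value was under 0.05, and the dashed line is the median of all tested genes, 0.23. The 4 filled circles among the members have open squares below them.

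Calcium channel transcripts are long, and the difference between the groups grew with transcript length over all genes. The longest annotated transcript of the 7 tested members was 5807 nt (Cacna2d2) to 13162 nt (Cacna1c), which put 6 of the 7 in the longest of 10 equal bins of tested genes. In that bin the median log2 difference was 0.69 and 36.5% of genes were called higher at ZT20. The log2 differences of Cacna2d1 (1.29), Cacna1h (1.02), Cacna1b (0.97) and Cacna1a (0.77) were above that median, and those of Cacna1d (0.68) and Cacna1c (0.48) were below it. After each sample's trend with length was removed, 40.3% of calls were higher at ZT20, against 78.1% before. Then 0 of the 7 members passed by limma, and 0 had an unadjusted p-value under 0.05. The log2 differences were 0.67 for Cacna2d1 (95% interval −0.02 to 1.36), 0.38 for Cacna1h (−0.23 to 0.99), 0.31 for Cacna1b (−0.21 to 0.82) and 0.13 for Cacna1a (−0.39 to 0.65), with limma adjusted p-values of 0.199, 0.396, 0.418 and 0.740. Those of Cacna1c and Cacna2d2 changed sign, to −0.22 and −0.20. The part of transcript length in the members' differences was not tested otherwise.

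**Figure D3:**
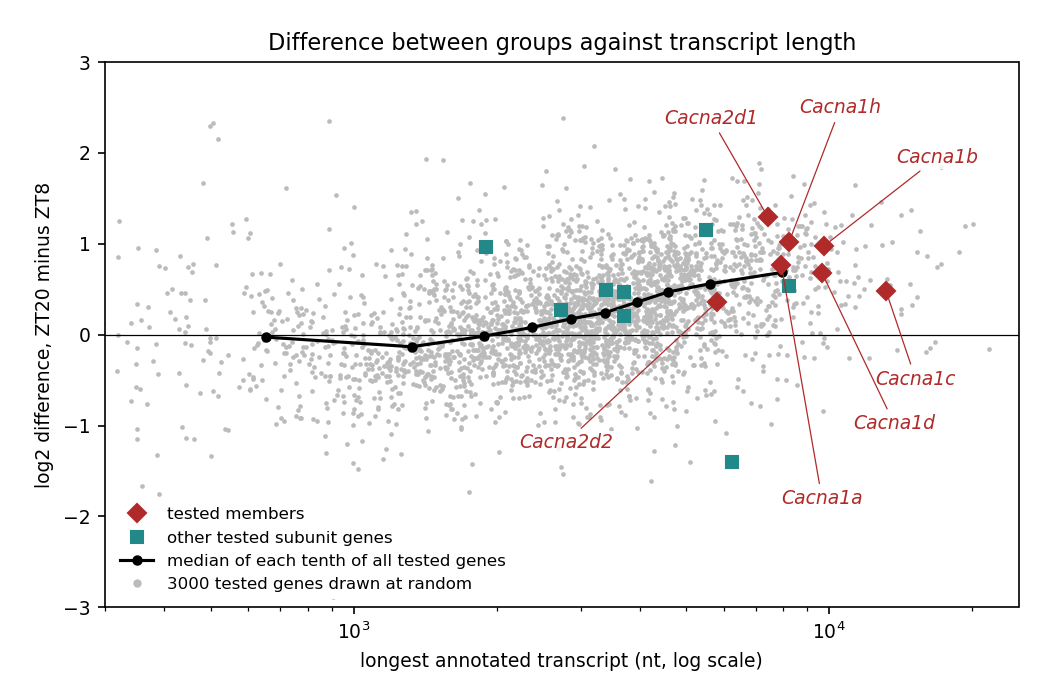
Log2 difference between ZT20 and ZT8 against the longest annotated transcript of each gene (log axis), for the tested members (red diamonds), other tested subunit genes (teal squares) and 3000 tested genes drawn at random (grey), with black points for the median of each of 10 equal bins of all tested genes by length. The black line climbs to 0.69 in the longest bin, and the members lie around its right end, Cacna2d1 highest and Cacna2d2 lowest.

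Scaling between samples also bore on the calls. Median-ratio scaling brought the median over all genes from 0.23 to 0.019 and the share of calls that were higher at ZT20 from 78.1% to 46.5%, and 0 of the 7 members passed by limma while 4 had an unadjusted p-value under 0.05. Cacna2d1, Cacna1h, Cacna1b and Cacna1a then differed by 1.04, 0.86, 0.74 and 0.58 (limma adjusted p-values 0.0565, 0.0565, 0.0651 and 0.120). Under quantile normalization, where 55.7% of calls were higher at ZT20, Cacna2d1 was the 1 member to pass, with a log2 difference of 1.19 (limma adjusted p = 0.0388). When a score of neuronal against other markers entered the model, 0 of 7 members passed by limma and 2 had an unadjusted p-value under 0.05. The marker score did not overlap between the groups (4.32 to 4.83 at ZT20 and 3.71 to 4.28 at ZT8), and in that fit the differences moved both ways. They were 1.996 for Cacna2d1, 0.61 for Cacna1h, 1.03 for Cacna1b and 0.92 for Cacna1a, and limma gave adjusted p-values of 0.155, 0.6253, 0.357 and 0.405.

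Without ZT20 replicates 3 and 4, the libraries with Ddx3y, Eif2s3y and Uty listed at 0, the log2 differences were 1.30 for Cacna2d1, 1.21 for Cacna1h, 0.87 for Cacna1b and 0.85 for Cacna1a. They were close to the values with all samples, and 4 of 7 members had an unadjusted p-value under 0.05. By limma 0 of 14800 genes passed the adjusted threshold in that fit of 5 samples, 2425 with an unadjusted p-value under 0.05. Without ZT20 replicate 2 as well, the same genes differed by 0.96, 1.17, 1.08 and 0.59. The single ZT20 sample left was assumed to vary like the others, and 0 of 14800 genes passed.

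**Figure D4:**
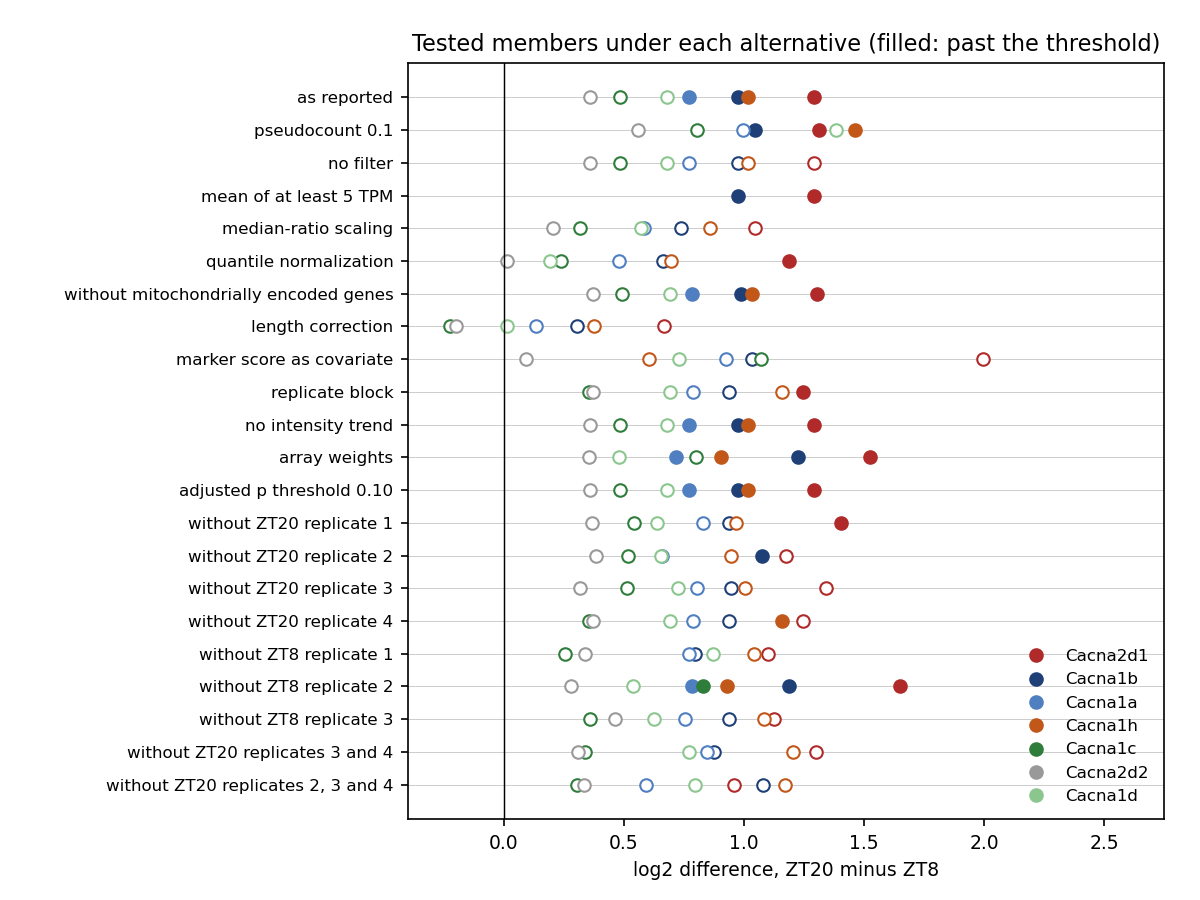
Log2 difference between ZT20 and ZT8 of the 7 tested members as reported and under each alternative, 1 row per setting, with 1 colour per gene and filled points where the gene passed the adjusted threshold. Cacna2d1 (red), Cacna1b (dark blue), Cacna1h (orange) and Cacna1a (light blue) lie right of 0 in every row, and the number of filled points is 0 to 5 when 1 sample is left out.

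The 10 alpha1 genes of the genome, Cacna1f and Cacna1s included, summed to 30.5 to 33.1 TPM at ZT20 and to 15.4 to 24.6 TPM at ZT8. Cacna1b made up the largest part in every sample, 63.9%, 50.1%, 61.7% and 64.6% across ZT20 replicates 1 to 4, against 40.3%, 52.1% and 56.5% in ZT8 replicates 1 to 3. Cacna1a made up 13.3% ± 3.25 over 4 ZT20 samples and 11.03% ± 2.25 over 3 ZT8 samples (± SD), and Cacna1h 10.8% ± 2.74 and 6.55% ± 2.64. The shares of these 3 genes overlapped between the groups. Cacna1s was in the same sum, at 0.247%, 3.77%, 2.99% and 0% across ZT20 replicates 1 to 4. In ZT8 replicates 1 to 3 it held 29.5%, 9.75% and 11.7%, which lowers the shares of the other genes there. ZT8 replicate 2 stood out again, with 11.1% of its alpha1 TPM from Cacna1e, which made up at most 1.22% in the other samples. The ratios of any 2 of Cacna2d1, Cacna1b, Cacna1h and Cacna1a, which do not depend on the scaling of a sample, overlapped between the groups in 6 of 6 pairs. The ratio of Cacna2d1 to Cacna1b was 3.73, 8.12, 4.27 and 5.15 across ZT20 replicates 1 to 4, against 4.23, 5.06 and 3.54 in ZT8 replicates 1 to 3.

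**Figure D5:**
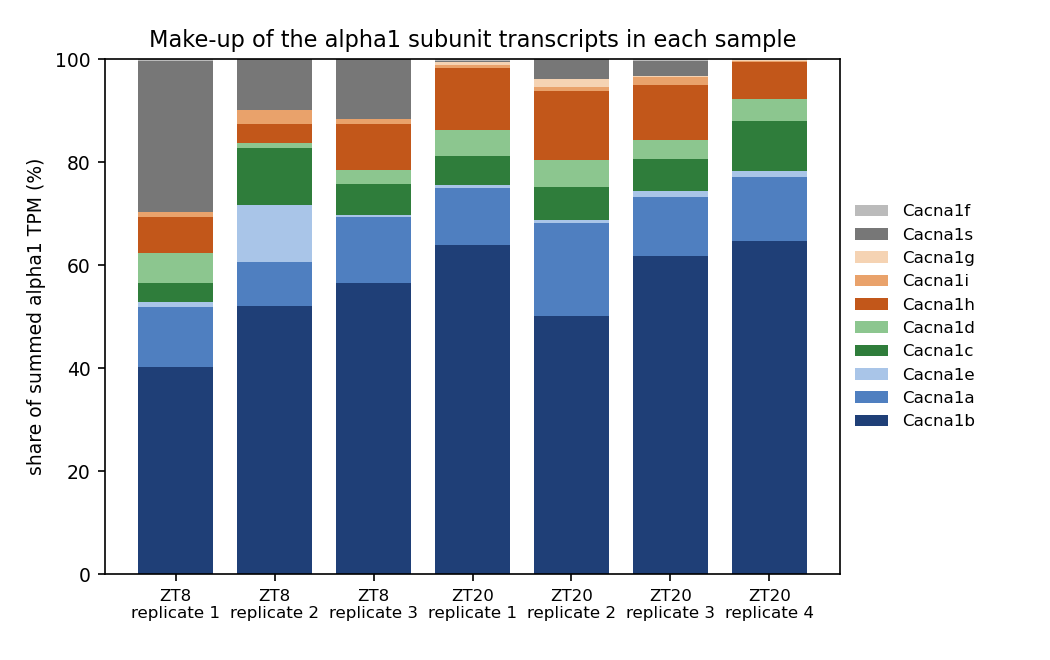
Share of each alpha1 gene in the summed alpha1 TPM of each sample, in percent, with 3 ZT8 samples at left and 4 ZT20 samples at right, blue for Cacna1b, Cacna1a and Cacna1e, green for the L-type genes Cacna1c and Cacna1d, orange for the T-type genes, and grey for Cacna1s and Cacna1f. Cacna1b fills 40.3% to 64.6% of every bar, and the dark grey Cacna1s part is larger in the ZT8 bars.

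The muscle L-type gene Cacna1s, which is no member, moved the other way. It was at 0.0799, 1.15, 0.990 and 0 TPM across ZT20 replicates 1 to 4, and at 5.14, 2.40 and 1.80 TPM in ZT8 replicates 1 to 3, the log2 difference being −1.40 ± 0.41 (SE; limma adjusted p = 0.0489). The groups did not overlap, and Cacna1s entered the test through its ZT8 values. With any 1 sample left out the limma adjusted p-value was 0.0529 to 0.128. After removal of the length trend the difference was −1.99 (limma adjusted p = 0.0264). The plasma cell marker Mzb1 was at 1.03, 9.28, 8.51 and 0 TPM across ZT20 replicates 1 to 4. In ZT8 replicates 1 to 3 it was at 44.2, 17.9 and 23.9 TPM. Derl3, another plasma cell marker, overlapped between the groups. The part of plasma cells in the Cacna1s values was not tested. Among the alpha2delta genes, Cacna2d1 made up 83.5% to 87.8% of the summed TPM at ZT20 and 68.9%, 86.7% and 73.3% in the ZT8 samples, with Cacna2d3 holding most of the rest.

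Of 16 other genes listed as channel subunits, 8 were tested, 0 rose and 1, Cacna1s, fell. Over all tested genes 12.8% were higher and 3.61% lower, and Cacna1s was tested only through its ZT8 values. The other 7 tested genes had positive log2 differences that did not pass, and the median over the 8 was 0.48. The gamma genes Cacng2, Cacng5 and Cacng8 were listed by symbol, and whether their proteins belong to these channels was not examined. Cacnb3, the most abundant subunit gene and a beta subunit that brings N-type channels to the membrane, measured 223, 204, 258 and 234 TPM across ZT20 replicates 1 to 4, and 195, 170.3 and 205 TPM in ZT8 replicates 1 to 3, overlapping slightly, for a log2 difference of 0.27 (limma adjusted p = 0.154). In 4 of the 8 the ranges did not overlap, with ZT20 above, as for 24.5% of all tested genes. These were Cacng2, Cacng8, Cacnb4 and Cacna2d3, named after their values were seen, with log2 differences of 1.15, 0.97, 0.54 and 0.47. Their limma adjusted p-values were 0.0925, 0.0865, 0.0830 and 0.0935, and after removal of the length trend the differences were 0.62, 0.95, −0.11 and 0.16.

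Of 13 genes whose proteins regulate the channels 10 were tested, 2 rose at ZT20, 0 fell, and the median log2 difference was 0.48. Over all tested genes 12.8% rose. Dpysl2, whose product CRMP2 binds N-type channels and microtubules, was at 1511, 2178, 1608 and 1628 TPM across ZT20 replicates 1 to 4, and at 629, 681.5 and 539 TPM in ZT8 replicates 1 to 3. Its groups lay far apart, with a log2 difference of 1.48 and a standard error of 0.15 (limma adjusted p = 0.00209). It also passed after removal of the length trend, at 1.05 (limma adjusted p = 0.0199). Cabp1, a calcium sensor that modulates L-type and P/Q-type channels, rose by 0.67 on the log2 scale (limma adjusted p = 0.0261). Its difference was 0.33 after removal of the length trend and 0.43 under median-ratio scaling, and did not pass in either (limma adjusted p = 0.323 and 0.144).

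Genes of the transmitter release site, where N-type and P/Q-type channels are anchored, were all tested. Of 10, 4 rose at ZT20 and 0 fell, and the median log2 difference was 0.93, beside 12.8% higher over all tested genes. The risers were the priming factor Unc13a (1.08), the scaffolds Pclo (1.22) and Bsn (1.02), and the calcium sensor Syt1 (0.75), with limma adjusted p-values of 0.00583, 0.0171, 0.0216 and 0.0109. Snap25, the most abundant of the list, averaged 2363 ± 134 TPM over 4 ZT20 samples and 2218 ± 494 TPM over 3 ZT8 samples (± SD), for a log2 difference of 0.12 (limma adjusted p = 0.631) that was −0.14 under median-ratio scaling. After removal of the length trend the log2 differences of Unc13a, Pclo, Bsn and Syt1 were 0.40, 0.49, 0.29 and 0.28, and 0 of the 4 passed by limma. Bsn also missed the threshold under median-ratio scaling (limma adjusted p = 0.0543).

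Among 24 genes that carry calcium signals onward, 22 were tested, 5 rose at ZT20, 0 fell, and the median was 0.55, beside 12.8% higher over all tested genes. They included the calcineurin genes Ppp3ca (1.24), Ppp3r1 (0.99) and Ppp3cb (0.77) and the kinase gene Camk2d (0.62), with limma adjusted p-values of 0.00205, 0.0118, 0.0344 and 0.0153. Ppp3ca, the catalytic subunit of calcineurin, averaged 455 ± 20.1 TPM over 4 ZT20 samples and 193 ± 28.9 TPM over 3 ZT8 samples (± SD). Ppp3ca and Ppp3r1 passed after removal of the length trend, at 0.78 and 0.82 (limma adjusted p = 0.0245 and 0.0462). Camk2d and Ppp3cb did not, at 0.077 and 0.45 (limma adjusted p = 0.690 and 0.148), nor under median-ratio scaling (limma adjusted p = 0.0696 and 0.0904). With any 1 sample left out, Ppp3ca, Dpysl2, Unc13a and Syt1 had limma adjusted p-values of at most 0.0165, 0.0165, 0.0365 and 0.0470, while the other genes named from these 3 lists as having risen missed the threshold in at least 1 such fit.

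The genes whose profiles were most like those of the 3 members with the largest differences were found by the root mean square difference of centred log2(TPM + 1) values over the 7 samples. Zhx3, Atxn1 and 1810013L24Rik were nearest to Cacna2d1, at 0.101, 0.148 and 0.138. Usp35, Gm10524 and Abcb1b were nearest to Cacna1h, at 0.101, 0.126 and 0.127, and Phkb, Osmr and Bsn were nearest to Cacna1b, at 0.0870, 0.121 and 0.130.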

How the data were processed

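RNA from 7 neuron-enriched ganglion samples was sequenced from low-input libraries, per the labels' protocols. The deposited values are TPM, made by the authors with Salmon 1.6.0 after Trim Galore 0.6.6, with build GRCm39, per the submitters' processing notes, which also name FastQC 0.11.9 and DESeq2 1.34.0. TPM is divided by transcript length and holds no depth. Here genes averaging 1 TPM or more were tested on log2(TPM + 1) with limma 3.58.1 (R 4.3.3; eBayes with trend, two-sided, Benjamini-Hochberg over 14800 genes, threshold 0.05). Such a scale understates the change of low genes. Differences are ZT20 minus ZT8. Lengths are each gene's longest GENCODE M21 transcript, known for 99.6% of tested genes, and their trend was removed per sample by loess (span 0.3). Of the members, 7 overlap another annotated gene, and strand use in the authors' quantification is not given in the sources used here. The fit was tested on simulated data.

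All members are named. From each list of other genes, those past the threshold (at most 6 by adjusted p) and the most abundant were named, with the 3 genes nearest in profile to each of the 3 members with the largest differences. 1 gene that this rule names is not reported here. The members and lists were chosen with earlier results of these data known. Alternatives varied the pseudocount, filter, scaling, covariate, block, weights, threshold and samples.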

Additional observations from a re-analysis of the deposited data

Results flagged for a closer look

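Within the ZT20 group, 2 of 24 gene profiles examined had 1 sample far from the other 3, by a gap beyond Dixon's critical share of the group's range, and chance gives about 1 in 20, or 1.2 of 24. The Cacna1b level of ZT20 replicate 2 was 15.3 TPM, below the 20.4 to 20.8 TPM of its group, a gap of 0.938 of the range. The Cacna1c level of ZT20 replicate 4 was 3.15 TPM, above the 1.82 to 2.004 TPM of its group, a gap of 0.863 of the range. ZT20 replicate 2 is the library with both Xist and Y-linked transcripts, and ZT20 replicate 4 is one of those with Ddx3y, Eif2s3y and Uty listed at 0. The part of either in these values was not tested.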

How the results depend on the processing

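Over all tested genes 2433 passed as reported. The count was 1178 with no filter on low values, 1207 after removal of the length trend (487 higher and 720 lower), 3899 with array weights, 4079 at a threshold of 0.10, and 624 to 3055 with 1 sample left out. It was 0 by limma with the marker score as covariate (1952 at an unadjusted p-value under 0.05), 0 without ZT20 replicates 3 and 4 (2425) and 0 without ZT20 replicates 2, 3 and 4 (1133). Of the members 4 passed as reported. With a pseudocount of 0.1 the count was 3, as Cacna1a missed (limma adjusted p = 0.0512), and the Cacna1d difference was 1.38 without passing. The count was 0 with no filter (5 at an unadjusted p-value under 0.05) and 2 with a mean of at least 5 TPM. It was 0 under median-ratio scaling (4), 1 under quantile normalization and 0 after removal of the length trend (0). It was 0 with the marker score (2), 0 without ZT20 replicates 3 and 4 (4), and 0 to 5 with 1 sample left out. Of the other subunit genes 1 passed, Cacna1s, which was tested only through its ZT8 values. The count was 0 with a pseudocount of 0.1, without a filter, with a minimum mean of 5 TPM, and with the marker score. It was also 0 without ZT20 replicates 3 and 4. In these fits 5, 8, 3, 0 and 2 had an unadjusted p-value under 0.05 by limma. The count was 2 with array weights, 5 at a threshold of 0.10, and 0 to 1 with 1 sample left out. The order of the members by level kept 8 to 10 ranks with 1 sample left out. Signs changed after removal of the length trend for Cacna1c (−0.22), Cacna2d2 (−0.20), Snap25 (−0.36) and the subunit genes Cacnb4 (−0.11) and Cacng5 (−0.10), and for Snap25 also under median-ratio scaling (−0.14), with the marker score (−0.18), with array weights (−0.0094) and with 1 sample left out (−0.073 without ZT8 replicate 2, and up to 0.26). The cause was not tested.

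With the replicate block, 1174 genes passed over all tested, 1 of the members (Cacna2d1, at 1.25 with a limma adjusted p of 0.0190) and 0 of the other subunit genes (5 at an unadjusted p-value under 0.05 by limma). The samples share only a number: deviations of samples with the same number correlated at −0.014, 0.153 and 0.083, not every sample correlated best with its own number, and ZT20 replicate 4 has no partner. The deposited TPM hold no depth, so no counting error could be set on the low members.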
